A study of Mus musculus with 18 samples.

Results

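Interneuron genes were followed through the 6 lists of ac4C peaks from mouse hippocampus, Reln, Erbb4, Nos1 and Slc32a1, and every listed peak whose gene name was one of these was taken. They were 4 genes of the 4922 with a listed peak, and they held 36 of the 24703 peaks, 11 in 5xFAD samples and 25 in WT samples. Peaks were measured by acRIP-seq, in which an antibody against N4-acetylcytidine (ac4C) pulls down RNA fragments of about 200 nt and each peak has a fold enrichment (FE), a ratio. By the methods, FE is the acRIP signal less the IgG signal, divided by the input signal. The samples were 3 from 5xFAD mice aged 3 months, set against 3 from WT littermates of the same age and the same C57BL/6J background. The sample titles do not say whether a sample was a single mouse. 5xFAD mice are transgenic and carry, among others, human APP with the Swedish, Florida and London mutations, driven by the murine Thy-1 promoter, which is active in neurons. WT mice carry no transgene. The whole hippocampus was used, so interneurons were a minority of the cells measured.

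Ac4C is an acetyl group on cytidine, written by the acetyltransferase NAT10, and it is known for effects on the stability and translation of mRNA. Interneurons of the hippocampus are the GABA-releasing cells that restrain the pyramidal neurons. Reln encodes reelin, a large secreted glycoprotein that in the adult hippocampus is made mainly by interneurons and that binds the receptors Vldlr and Lrp8. Erbb4 encodes the receptor tyrosine kinase for neuregulins, found on parvalbumin interneurons. Nos1 encodes neuronal nitric oxide synthase, whose heme-binding oxygenase part and flavin-binding reductase part lie in a single chain. Slc32a1 encodes the transporter that loads GABA into synaptic vesicles. The first 3 are a ligand, a receptor and an enzyme, and Slc32a1 marks the cells that release GABA.

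The lists held 3734 to 3921 peaks in 5xFAD samples and 4151 to 4558 peaks in WT samples, with no read counts, so the sequencing depth was unknown here. No list stood apart by its number of peaks, and no pair of lists shared more than 5 peaks with the same ends and the same FE. Detection in 2 or all 3 samples of a genotype was needed for an mRNA or a peak region to count there, and 4493 mRNAs met this in either genotype. The mRNAs fell into 1555 seen in 5xFAD alone (AD unique), 1817 seen in WT alone (AD absent) and 1121 seen in both (overlay). Of 7941 called regions, 497 were called in both genotypes (6.26%). All 36 member peaks had an FDR of 20.15% to 100% in the deposited column, where the lists as a whole ranged over the same values. The score reached its listed ceiling of 3100 in 27 of the 36, all 11 of 5xFAD and 16 of 25 of WT.

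Erbb4 and Nos1 had peaks in both genotypes, at different places in the transcript, and Reln and Slc32a1 had peaks in WT samples alone. Of the 14 regions that held a member peak, 4 were called in 5xFAD alone, 9 in WT alone and 0 in both, and the last had a peak in a single WT sample. Beside the 6.26% of all regions that were shared, a count of 0 among 13 called regions is not a result about these genes. Of the 1121 overlay mRNAs, 682 (60.8%) had no region called in both genotypes, so Erbb4 and Nos1 were like most of them in this. Most of the strong peaks came as pairs on neighbouring exons that touched each other once the intron was taken out. Sequences from those pairs are printed here because they are ac4C-enriched stretches on which the FE of Reln, Erbb4 and Nos1 rests. All are from the mouse reference genome GRCm38 (mm10), on the strand of the mRNA, 5′ to 3′ and with T for U, and capitals mark each match to 4 CNN triplets in a row, a cytidine followed by any 2 bases, a pattern tied to ac4C.
Reln exon 62, WT, chr5:21896747-21896797, minus strand: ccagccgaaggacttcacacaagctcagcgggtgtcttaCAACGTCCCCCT
Reln exon 63, WT, chr5:21896027-21896087, minus strand: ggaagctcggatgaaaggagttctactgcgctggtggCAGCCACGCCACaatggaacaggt
Erbb4 exon 7, 5xFAD, chr1:68346546-68346592, minus strand: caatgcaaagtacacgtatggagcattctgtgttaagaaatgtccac
Erbb4 exon 8, 5xFAD, chr1:68343842-68343953, minus strand: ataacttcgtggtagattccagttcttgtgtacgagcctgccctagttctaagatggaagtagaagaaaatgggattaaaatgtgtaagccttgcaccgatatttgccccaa
Nos1 exon 5, 5xFAD, chr5:117896808-117896835, plus strand: gggcaggatccagtggtccaagctgcag
Nos1 exon 6, 5xFAD, chr5:117897711-117897785, plus strand: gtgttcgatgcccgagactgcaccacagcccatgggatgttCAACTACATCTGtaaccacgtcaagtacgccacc
Nos1 exon 15, WT, chr5:117914384-117914433, plus strand: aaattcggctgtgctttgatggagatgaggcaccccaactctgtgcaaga

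In the spliced mRNA each of these pairs formed a single stretch with 0 bases between the peaks. The stretches were 112 bases long over the junction of Reln exons 62 and 63, 159 over Erbb4 exons 7 and 8, 103 over Nos1 exons 5 and 6, and 134 over Nos1 exons 14 and 15. Of the 36 member peaks, 22 met another peak of the same sample at an exon junction in this way (61.1%), and 31 ended at a splice site (86.1%). Over all mRNAs the shares were 23.1% and 69.6% of the 24703 peaks. The 22 all lay at the junctions just named, counted again in each sample with both peaks, so they are not 22 separate sites. Since an mRNA's FE is the sum over its peaks, such a pair enters the sum as 2 peaks.

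Reln, the reelin mRNA, carried ac4C peaks in all 3 WT samples and in no 5xFAD sample. The gene lies on chromosome 5 from 21884454 to 22344705, minus strand (GRCm38), and its transcript NM_011261.2 has 65 exons and 11702 bases. Both WT peaks were in the coding sequence near its end, over codons 3378 to 3415 of 3461, at 89.4% and 89.8% of the transcript's length. No peak was listed in 5xFAD samples, against an FE of 159, 172 and 157 in the exon 62 peak and 161, 174 and 159 in the exon 63 peak of WT samples. The 2 peaks therefore had almost the same FE within each WT sample. Summed, Reln was listed at 0 in all 3 5xFAD samples, against an FE of 319.6, 346 and 317 in WT samples (327 ± 16.4, SD, n = 3). The genotypes did not overlap, with an exact two-sided permutation p of 0.1, which is the smallest that 3 against 3 samples allow. Groups that do not overlap were common, at 75.5% of the 4493 mRNAs, and 40.4% of them were called in WT alone as Reln was. In WT samples Reln ranked 307 to 363 from the top among 2750 to 2938 mRNAs with a peak. No fold is given against samples without a peak, and the level of Reln mRNA itself was not analysed here. A sample without a listed peak has an unknown level, since a peak may have missed the authors' threshold or been removed by their filters. In these whole-tissue samples, a change in ac4C, in RNA per cell or in the number of cells of a type cannot be told apart.

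Erbb4, the neuregulin receptor mRNA, had a higher summed FE in 5xFAD samples, from peaks at other sites than in WT samples. The gene lies on chromosome 1 from 68031884 to 69108576, minus strand, and NM_010154.2 has 27 exons and 12037 bases. In 5xFAD samples the peaks covered the last 47 bases of exon 7 and 112 of the 114 bases of exon 8, over codons 279 to 332 of 1292, in the part of the reading frame for the extracellular region of the receptor. The exon 7 peak had an FE of 149, 187 and 202 and the exon 8 peak an FE of 259, 303 and 268 in the 3 5xFAD samples, and neither was listed in a WT sample. In WT samples there was a single peak around the start codon in exon 1, with an FE of 13.3, 9.86 and 12.7, and it was not listed in a 5xFAD sample. This WT peak had an FDR of 79.8% to 100% and a score of 513 to 641, where the 5xFAD peaks had 22.1% to 30.3% and 3100. Erbb4 counted in WT through this peak alone. The coding part of the WT peak is shown here as the only Erbb4 stretch listed in WT, with the start codon in capitals.
Erbb4 exon 1, WT, chr1:69107675-69107756, minus strand: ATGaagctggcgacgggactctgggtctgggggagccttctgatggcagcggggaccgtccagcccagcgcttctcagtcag
Along the mRNA, 754 bases lay between this WT peak and the nearer 5xFAD peak. Summed FE was 408, 490.4 and 469 in 5xFAD samples and 13.3, 9.86 and 12.7 in WT samples. Every 5xFAD value lay far above every WT value, with means of 456 ± 42.9 and 11.9 ± 1.83 (SD, n = 3 each, exact two-sided permutation p = 0.1). On the log2(FE + 1) scale the difference of the sums was 5.15 ± 0.22 (SE, limma over 1121 overlay mRNAs, Benjamini-Hochberg adjusted p = 3.43e-05). The sums cover different sites, 159 bases in each 5xFAD sample and 116 in each WT sample, and the peaks of a sample averaged an FE of 204, 245 and 235 in 5xFAD samples and 13.3, 9.86 and 12.7 in WT samples. The difference is therefore between listed peaks of the mRNA and not a fold change of any site. Of those mRNAs 20.8% were called higher in 5xFAD at an adjusted p under 0.05 and a fold of at least 2, and Erbb4 had the 44th largest difference of the 233. Erbb4 ranked 163 to 208 from the top in 5xFAD samples, among 2575 to 2660 mRNAs, and 2031 to 2353 from the top in WT samples, among 2750 to 2938.

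**Figure D1:**
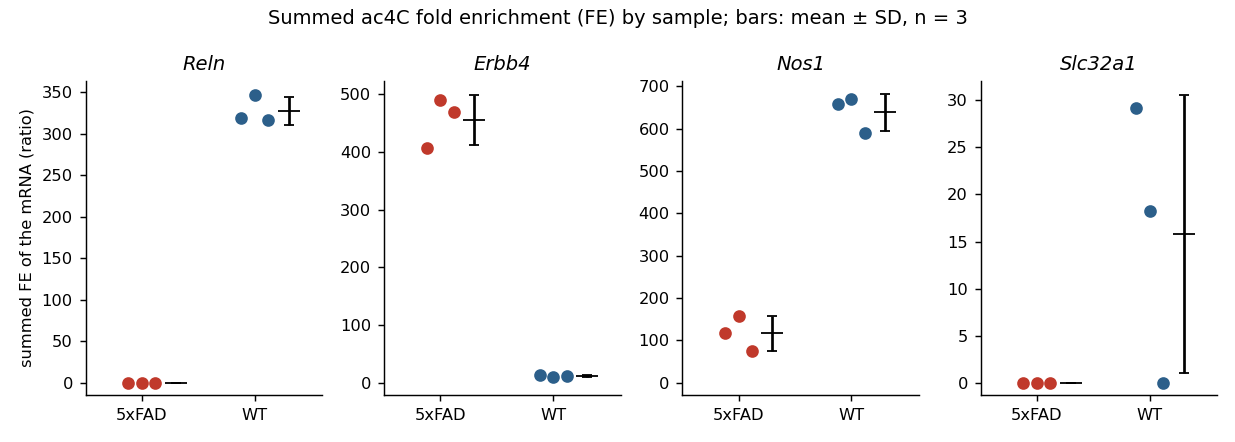
Summed FE (a ratio) of each of the 4 mRNAs, with a dot for each sample and 5xFAD left of WT; black bars are the mean and SD of 3 samples, and 0 stands for no listed peak. Erbb4 was high in the 5xFAD samples (408 to 490.4), Reln and Nos1 in the WT samples, and Slc32a1 had 1 WT sample at 0.

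Nos1, the neuronal nitric oxide synthase mRNA, had a lower summed FE in 5xFAD samples, with the peaks of each genotype in other exons. The gene lies on chromosome 5 from 117866839 to 117958840, plus strand, and NM_008712.3 has 28 exons and 9695 bases. In 5xFAD samples the peaks lay on exons 5 and 6, over codons 416 to 450 of 1429, in the oxygenase part of the enzyme. The exon 5 peak had an FE of 47.9 and 73.2 in replicates 1 and 2 and was not listed in replicate 3, and the exon 6 peak had an FE of 69.3, 85.0 and 75.9. In WT samples the strongest peaks lay on exons 14 and 15, over codons 792 to 836, in the reductase part. Their FE was 257, 289 and 252 on exon 14 and 258, 288 and 246 on exon 15, again nearly equal within a sample. A further WT peak on exon 23, over codons 1201 to 1220 and also in the reductase part, had an FE of 74.7, 86.6 and 78.6. Its sequence and that of the weak WT peak on exon 11 are shown as the other coding stretches with a listed peak in WT.
Nos1 exon 11, WT, chr5:117910058-117910251, plus strand: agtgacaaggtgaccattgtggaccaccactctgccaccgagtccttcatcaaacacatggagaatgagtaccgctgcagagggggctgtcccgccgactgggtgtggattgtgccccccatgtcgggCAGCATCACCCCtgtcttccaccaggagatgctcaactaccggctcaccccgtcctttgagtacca
Nos1 exon 23, WT, chr5:117943819-117943876, plus strand: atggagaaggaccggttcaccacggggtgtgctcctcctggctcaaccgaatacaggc
The exon 11 peak covered 194 of the exon's 195 bases and had an FE of 4.38 and 3.88 in WT replicates 2 and 3, with none in replicate 1. Where listed, the exon 11 peak had an FDR of 100% and a score of 145 to 159. WT samples also held peaks in the 3′UTR, listed under another Nos1 transcript. The region from 117957796 to 117958125 had an FE of 9.55 and 8.25 in replicates 1 and 3, and that from 117958339 to 117958596 had an FE of 59.6 in replicate 1 alone.

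Summed FE of Nos1 was 117, 158 and 75.9 in 5xFAD samples and 658, 669 and 589 in WT samples. The genotypes did not overlap, with means of 117 ± 41.1 in 5xFAD and 639 ± 43.4 in WT (SD, n = 3 each, exact two-sided permutation p = 0.1). The lowest value, that of 5xFAD replicate 3, was the sample without the exon 5 peak. On the log2(FE + 1) scale the difference of the sums was -2.50 ± 0.32 (SE, limma, Benjamini-Hochberg adjusted p = 0.00166). These sums also cover different sites, 103, 103 and 75 bases in 5xFAD samples and 777, 386 and 710 in WT samples. No site had a listed peak in both genotypes. The mean FE per peak was 58.6, 79.1 and 75.9 in 5xFAD samples and 132, 167 and 118 in WT samples. Among the overlay mRNAs 32.3% were called lower in 5xFAD, and Nos1 had the 265th largest difference of the 362. The median difference of all 1121 overlay mRNAs was -0.47, and centring each sample on its median moved it to 0.24. With that centring Nos1 was at -1.79 and Erbb4 at 5.86, and with the highest FE of an mRNA in place of the sum they were at -1.78 and 4.43. Both were called in each of these fits. The shortest distance along the mRNA between the genotypes' peaks was 576 bases. It lay between the exon 6 peak of 5xFAD and the weak exon 11 peak of WT (FDR 100%).

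**Figure D2:**
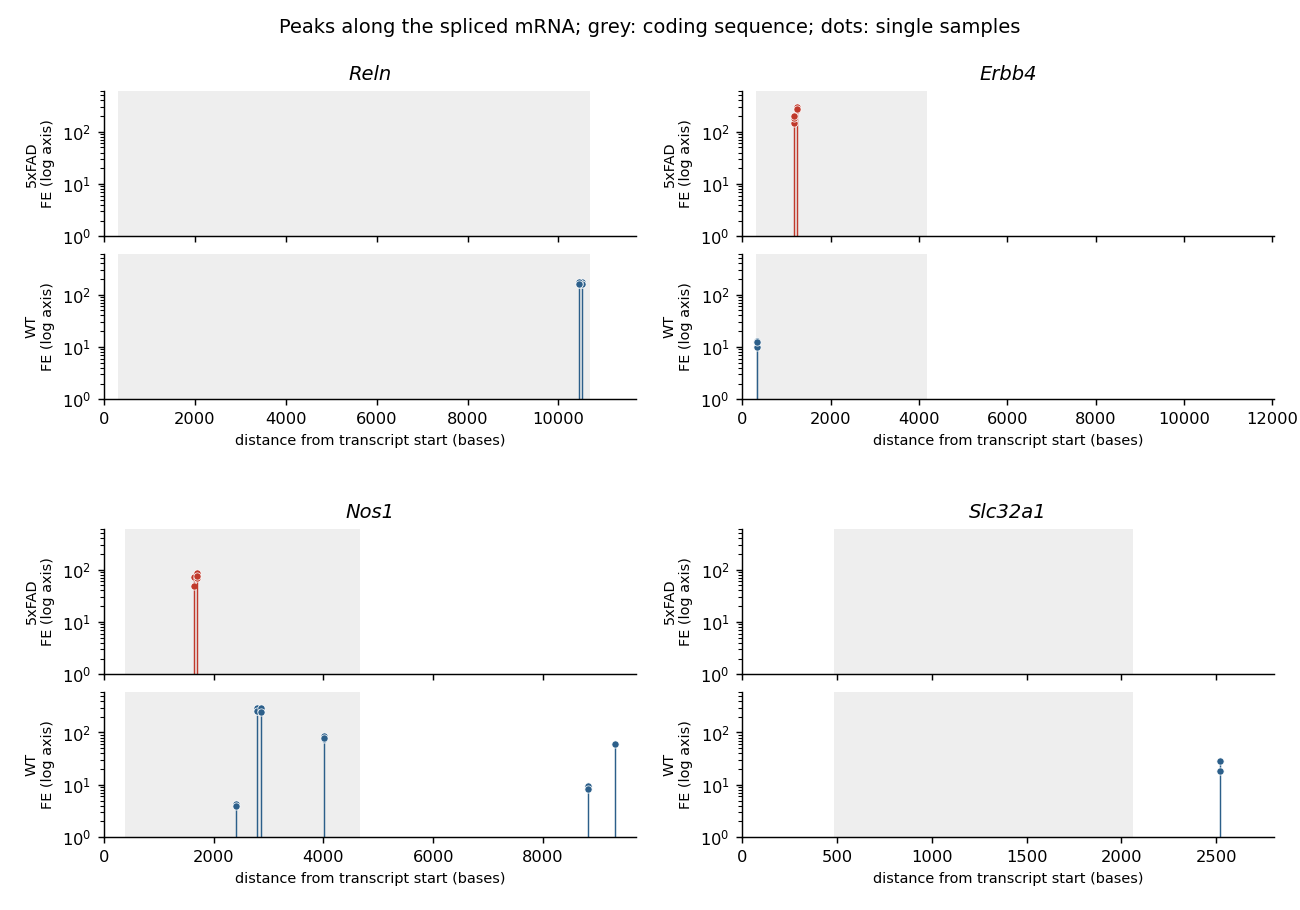
FE of each peak (log axis) against the distance of its midpoint from the transcript start in bases, with 5xFAD above WT for each gene; dots are single samples and the grey band is the coding sequence. No peak of a 5xFAD sample shares its place with a WT peak, and the strong peaks of Reln, Erbb4 and Nos1 come in adjoining pairs.

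**Figure D3:**
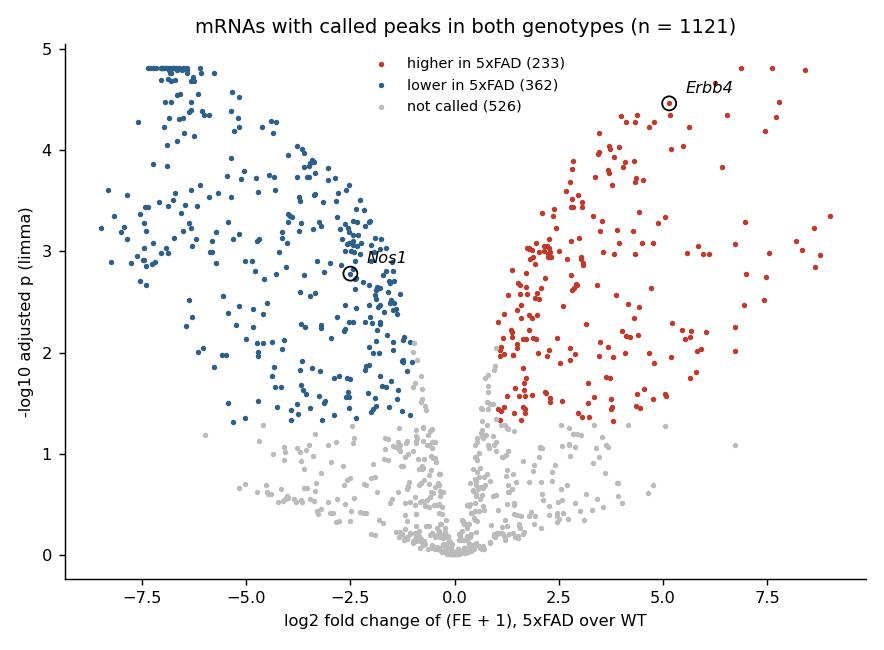
Difference of each of the 1121 overlay mRNAs on the log2(FE + 1) scale, 5xFAD over WT, against -log10 of the limma adjusted p, with called mRNAs in colour. Erbb4 (5.15) lies among the 233 called higher and Nos1 (-2.50) among the 362 called lower.

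Slc32a1, the vesicular GABA transporter mRNA, had a weaker peak in 2 WT samples. The gene lies on chromosome 2 from 158607260 to 158615747, plus strand, and NM_009508.2 has 2 exons and 2805 bases. The single peak, from 158615293 to 158615634, covered 342 bases of the 3′UTR in exon 2, centred at 89.9% of the transcript's length. No peak was listed in the 3 5xFAD samples, against an FE of 29.2 and 18.2 in WT replicates 1 and 2, and none in WT replicate 3. The genotypes overlapped at 0 (0 in 5xFAD and 15.8 ± 14.7 in WT, SD, n = 3 each, exact two-sided permutation p = 0.4). Leaving out WT replicate 1 took the difference to -9.10, compared with -15.8 over all samples. Slc32a1 counted as a WT mRNA by the rule of 2 samples and for neither genotype when all 3 samples had to have a peak. It was the only one of the 4 whose peaks all lay outside the coding sequence.

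The base composition of the 13 called member regions was described beside regions of similar length, with no test. The 8 of up to 100 bases had a median C content of 26.8% and a median GC content of 58.1%, beside 25.0% and 52.7% over the 2872 called regions of that length on the mRNA strand. The run of 4 CNN triplets, searched on the mRNA strand in any frame, was in 4 of the 8, and 20.3% of all regions of that length held it. CCG was in 3 of the 8, and 35.2% of all such regions held it. The 5 regions of over 100 and up to 400 bases had the run of CNN triplets in 2 and CCG in all 5, beside 63.0% and 74.5% of 4463 regions of that length. Neither of the Erbb4 stretches of 5xFAD held the run of CNN triplets, while both Reln stretches of WT did, as the capitals above show. The Erbb4 stretches of 5xFAD had a C content of 18.8% and 19.1%, the lowest of the 14 regions, and the Reln exon 62 stretch had the highest, at 37.3%. A match is a description of letters and does not show which cytidine was acetylated.

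The mRNAs whose FE over the 6 samples was most like that of each gene were found among those with a peak in the same samples, by the Euclidean distance of log2(FE + 1). For Reln these were Entpd1, Inpp4a and Apoo-ps (distances 0.091, 0.11 and 0.11, of 1314 mRNAs), for Erbb4 they were Ddx27, Alkbh5 and Smarca2 (0.75, 1.02 and 1.21, of 727). For Nos1 they were Atxn7l1, Dopey2 and Atp13a1 (1.22, 1.28 and 1.36, of 727), and for Slc32a1 AI464131, Gnl2 and Kat5 (0.27, 0.35 and 0.37, of 99). None of the 12 is on the list of interneuron markers.

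Most mRNAs on the list of interneuron markers, which holds the 4 genes too, were without peaks. Of 50 markers, 33 had no peak in any sample, among them Gad1, which makes GABA, the parvalbumin gene Pvalb, the neuropeptide gene Vip and the transcription factor gene Lhx6. Marker lists of other cell types ranged from 5 of 18 (astrocytes) to 14 of 18 (microglia) without a peak, so this is not a result about interneurons. Of the 16 counted in either genotype, 3 were in 5xFAD alone, 7 in WT alone and 6 in both, beside 34.6%, 40.4% and 24.9% of all mRNAs. The 7 include Reln and Slc32a1, and the 6 include Erbb4 and Nos1. Gad2, the other GABA-making enzyme, was not listed in 5xFAD samples and had an FE of 4.72, 0 and 3.82 in WT samples. Sst, the somatostatin gene, had a peak in 5xFAD replicate 2 alone (FE 31.2). Of the 6 in both, limma called 2 higher and 1 lower in 5xFAD, beside 20.8% and 32.3% of all overlay mRNAs. Besides Erbb4 and Nos1, the marker called by limma was Adarb2, an RNA-editing family gene of caudally derived interneurons, with an FE of 96.6, 67.8 and 109.96 in 5xFAD samples and 18.2, 16.2 and 20.3 in WT samples (difference 2.24 ± 0.26, adjusted p = 0.00114). Tacr1, the substance P receptor gene, had an FE of 106, 129 and 123 in 5xFAD samples and no peak in WT samples, and Satb1, a chromatin organiser gene, had no peak in 5xFAD samples and 59.99, 54.8 and 57.9 in WT samples. Summed over all 50 markers, FE was 772 to 897 in 5xFAD samples and 1089 to 1166 in WT samples. Without the 4 genes the sums were 247, 249 and 273 in 5xFAD samples and 139.9, 122 and 171 in WT samples, so the direction of the list's sum turned with them.

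Partners of reelin were counted in 5xFAD alone, in WT alone and in both. Of 30 reelin pathway genes 19 were counted, 5 in 5xFAD alone (26.3%), 9 in WT alone (47.4%) and 5 in both (26.3%), near the 34.6%, 40.4% and 24.9% of all mRNAs. Reln itself is among the 9. Limma called 0 of the 5 higher and 1 lower in 5xFAD, where 20.8% and 32.3% of all overlay mRNAs were called, with a median difference of -0.84 over the 5, beside -0.47 over all. Dab1, the adaptor that carries the reelin signal into the cell, had an FE of 49.4, 49.6 and 70.4 in 5xFAD samples and no peak in WT samples. Vldlr, a reelin receptor gene, had no peak in 5xFAD samples and an FE of 171, 171 and 0 in WT samples, and the other receptor, Lrp8, had no peak in any sample. Rapgef1, an exchange factor for the small GTPase Rap, had no peak in 5xFAD samples and an FE of 56.2, 203 and 185 in WT samples. Grin2a, an NMDA receptor subunit gene, was the one called, with an FE of 11.6, 13.03 and 25 in 5xFAD samples and 63.7, 91.0 and 64.4 in WT samples (difference -2.14 ± 0.36, limma adjusted p = 0.00497). Nck2, an adaptor gene, counted as a WT mRNA with an FE of 5.02 and 6.08 in WT replicates 2 and 3, although 5xFAD replicate 1 had an FE of 573.

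For Erbb4, its ligands and their proteases were on the list of neuregulin and ErbB signalling, of which 11 of 30 were counted, 1 in 5xFAD alone (9.09%), 6 in WT alone (54.5%) and 4 in both (36.4%), beside 34.6%, 40.4% and 24.9% of all mRNAs. Nrg1 had no peak in any sample, and Nrg3, another ligand gene, had none in 5xFAD samples and an FE of 16.6, 15.7 and 12.7 in WT samples. Adam19, a membrane protease that sheds neuregulins, had an FE of 577, 699.8 and 468 in 5xFAD samples and no peak in WT samples. Of the 4 in both, limma called Erbb4 higher in 5xFAD, and Dlg4 and Wwp1 lower, beside 20.8% and 32.3% of all overlay mRNAs. Dlg4, the scaffold PSD-95, which binds Erbb4 and Nos1 alike, had an FE of 11.7, 15.2 and 15.8 in 5xFAD samples and 26.1, 28.2 and 59.3 in WT samples (difference -1.26 ± 0.38, adjusted p = 0.0374). Wwp1, a ubiquitin ligase, had an FE of 139, 78.8 and 94.2 in 5xFAD samples and 295, 313 and 246 in WT samples (difference -1.48 ± 0.29, adjusted p = 0.00788).

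The list around Nos1 had the most mRNAs in both genotypes, 11 of the 17 counted of 34, with 2 in 5xFAD alone and 4 in WT alone. These are 64.7%, 11.8% and 23.5%, beside 24.9% of all mRNAs in both, 34.6% in 5xFAD alone and 40.4% in WT alone. Of the 11, limma called 2 higher and 6 lower in 5xFAD, beside 20.8% and 32.3% of all overlay mRNAs, with a median difference of -1.26, beside -0.47 over all. The 6 were Nos1 itself, Nos1ap, Dynll1, Pfkm, Grin2a and Dlg4. Grin2a is also on the reelin list and Dlg4 on that of ErbB signalling, so these lists are not independent. Nos1ap, the adaptor that binds the synthase, had an FE of 10.5, 9.31 and 9.91 in 5xFAD samples and 660.2, 582 and 975 in WT samples (difference -6.05 ± 0.26, limma adjusted p = 4.07e-05). Dynll1, a dynein light chain that also binds the synthase, had an FE of 7.42, 7.67 and 6.62 in 5xFAD samples and 27.0, 26.2 and 27.5 in WT samples (difference -1.76 ± 0.18, adjusted p = 0.000754). Pfkm, a glycolytic enzyme gene, also fell (difference -2.27, adjusted p = 0.000307). Those called higher were Dlg2, a scaffold related to PSD-95 (302, 196 and 209 in 5xFAD samples and 24.0, 29.8 and 27.1 in WT samples, difference 3.06), and Ddah1, which breaks down an inhibitor of the synthase (72.7, 136 and 108 in 5xFAD samples and 13.9, 14.1 and 8 in WT samples, difference 3.03). Pde9a, a cyclic GMP phosphodiesterase gene, had an FE of 246, 185 and 154 in 5xFAD samples and no peak in WT samples. Pde2a and Pde10a, of the same enzyme family, had none in 5xFAD samples and an FE of 42.1 to 63.7 and 33.8 to 55.6 in WT samples.

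Around Slc32a1, 17 of 32 genes of GABA synthesis, transport and receptors were counted, 2 in 5xFAD alone (11.8%), 8 in WT alone (47.1%) and 7 in both (41.2%), beside 34.6%, 40.4% and 24.9% of all mRNAs. Slc32a1 itself is among the 8. Of the 7, limma called 2 higher and 2 lower in 5xFAD, beside 20.8% and 32.3% of all overlay mRNAs. Gabbr1, of the metabotropic GABA receptor, was higher in 5xFAD by 2.52 ± 0.56 on the log2 scale (limma adjusted p = 0.0127), while its partner Gabbr2 had no peak in 5xFAD samples and an FE of 126 in 2 WT samples. Gabrg3 fell by 2.62 and Slc12a5, the chloride exporter of neurons, fell by 2.64 on the log2 scale. Gabra5, a receptor subunit gene, had an FE of 175, 0 and 51.7 in 5xFAD samples and no peak in WT samples.

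**Figure D4:**
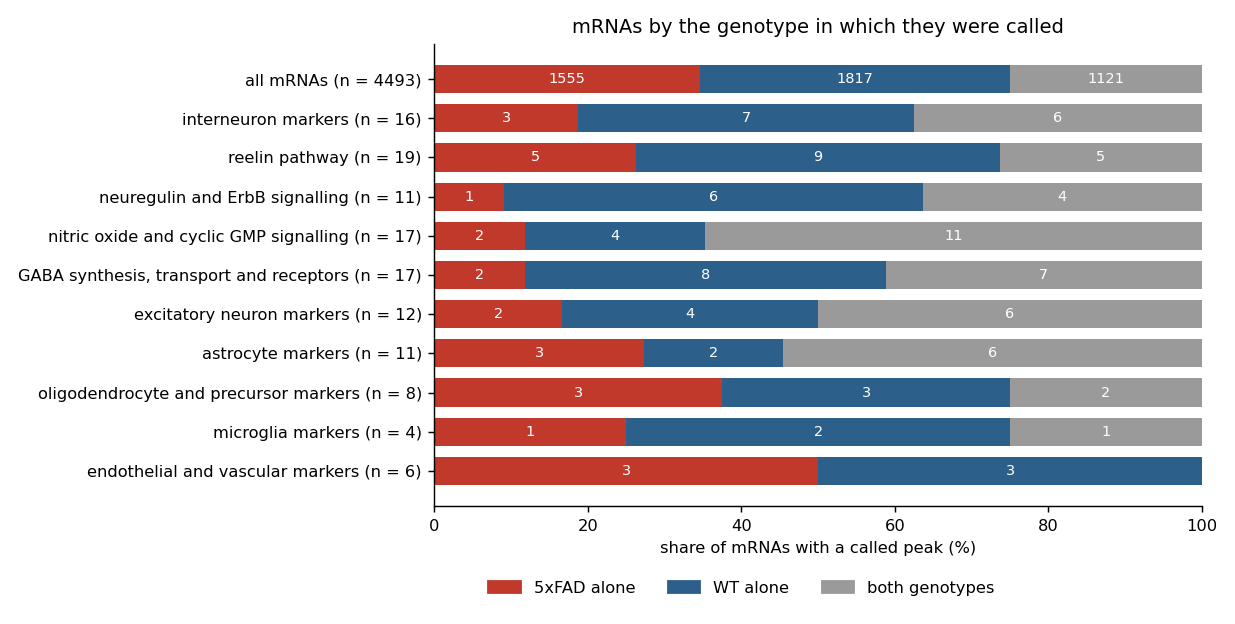
Share (%) of the mRNAs of each gene list that were counted in 5xFAD alone, in WT alone or in both genotypes, with the number of mRNAs in each segment and all 4493 mRNAs in the top bar. Interneuron markers had 3, 7 and 6 mRNAs, the 4 genes included, and the nitric oxide list had 11 of 17 in both, Nos1 among them.

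Marker mRNAs of the other cells of the tissue also had peaks, and their part in the results above was not tested. Excitatory neuron markers, 12 of 26 counted, summed to an FE of 237 to 262 in 5xFAD samples and 624 to 737 in WT samples. Much of that gap was Rasgrf2 (no peak in 5xFAD samples and 318, 319 and 196 in WT samples). The 6 markers in both, Camk2a and Fibcd1 of pyramidal neurons among them, had a median difference of 0.28, beside -0.47 over all overlay mRNAs. Limma called 1 of the 6 higher and 0 lower in 5xFAD, beside 20.8% and 32.3% of all overlay mRNAs. Astrocyte markers, 11 of 18 counted, summed to 308 to 590.4 in 5xFAD samples and 371 to 501 in WT samples, which overlap. Oligodendrocyte markers, 8 of 18 counted, summed to 78.6 to 239.7 in 5xFAD samples and 953 to 1129 in WT samples, mostly from Mbp (655 to 713 in WT samples) and Opalin (180.2 to 252), while Mag, Mobp and Gpr17 were counted in 5xFAD alone. Microglia markers, 4 of 18 counted, summed to 6.43 to 11.4 in 5xFAD samples and 330.3 to 1173 in WT samples, of which Tmem119 made up 287 to 1139 in WT samples, while Ctss was counted in 5xFAD alone and Csf1r and P2ry12 had no peak in any sample. Endothelial and vascular markers, 6 of 18 counted, summed to 316 to 373 in 5xFAD samples and 46.2 to 272 in WT samples.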

How the data were processed

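Peak lists of the 6 acRIP libraries (3 5xFAD, 3 WT) were used, and the 12 input and IgG libraries were not analysed here on their own. The authors used Cutadapt 1.9.3 for trimming, Hisat2 2.04 for alignment to mm10 and MACS 1.4.2, per sample and against input, for peaks, and peaks on protein-coding exons without an overlapping IgG peak were kept. FE is the authors' ratio, as deposited, with no scaling between samples. The score column (10 times the negative log10 of a p-value) and the FDR column in percent were deposited by the authors and used as descriptions only. The methods set an adjusted p of 5%, which no listed FDR met. In the lists 11 number cells turned into dates by a spreadsheet were decoded. Depth was unknown, and the number of samples limits the precision.

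Peaks overlapping by 1 bp were merged into regions and FE summed per mRNA, with 0 for no peak. Groups were compared by exact permutation tests and by limma 3.58.1 (R 4.3.3) on log2(FE + 1), called at an adjusted p under 0.05 and a fold of at least 2. A check of the fit on simulated data gave every mRNA the same spread and held no zeros for missing peaks. That check cannot show how the fit handles such zeros or unequal spread. The named genes were the 4 members, 14 set partners and markers, each list's limma calls, up to 4 of its genes of a single genotype by mean FE, and the 3 most like mRNAs. Positions, exons and sequences came from RefSeq (GRCm38.p6), which gave a strand for 99.5% of called regions. No other gene had an annotated exon at a member region. The members, the 10 gene lists and the tests were chosen with earlier results of these data known. Some genes that the naming rule selects, and 1 peak sequence, are not reported here. Alternatives are given below.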

Additional observations from a re-analysis of the deposited data

How the results depend on the processing

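Over 15 alternatives of the limma fit, the log2 difference of Erbb4 stayed between 4.41 and 5.86 (adjusted p at most 0.00369) and that of Nos1 between -2.74 and -1.78 (adjusted p at most 0.0114), and both were called in each. Counts of overlay mRNAs called higher and lower in 5xFAD were 233 and 362 (39.2% higher), and with median centring 329 and 292 (53.0% higher). Leaving out single samples gave 188 to 231 higher and 301 to 382 lower. With the replicate number as a block (replicate block), 206 were higher and 331 lower, and Erbb4 and Nos1 were still called. Reln and Slc32a1 were in no fit of overlay mRNAs, since they had no listed peak in 5xFAD samples. Deviations of same-numbered samples correlated at -0.04 to 0.00, so the numbers were not taken as pairs. With the highest FE per mRNA in place of the sum, the difference in FE between 5xFAD and WT was -164.6 for Reln, 265 for Erbb4 and -189.6 for Nos1. An alternative chosen after seeing the data, peaks that meet at an exon junction counted as 1, gave -164.6, 265 and -298. Scaling FE by each sample's median FE per peak took Reln to -313. Leaving out single samples gave -333 to -318 for Reln, 427 to 468 for Erbb4, -546 to -501 for Nos1 and -23.7 to -9.10 for Slc32a1. All differences kept their direction. The 0 shared, 4 5xFAD and 9 WT regions became 0, 3 and 6 when all 3 samples had to have the peak. Other stricter rules left 4 5xFAD and 8 or 9 WT regions, and no member region became shared. Read counts, input levels and mRNA levels were not analysed here, so summed FE rests on listed peaks alone. The level of a sample without a listed peak is unknown, since a peak may have missed the authors' threshold or been filtered out.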

Other observations

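Single markers of other cell types had summed FE as high as the members. Mbp, a myelin protein gene, had an FE of 8.24, 8.84 and 9.75 in 5xFAD samples and 684, 713 and 655 in WT samples (difference -6.11 ± 0.18, limma adjusted p = 1.54e-05). Tmem119, a microglial surface gene, had an FE of 4.18, 8.04 and 0 in 5xFAD samples and 919.8, 287 and 1139 in WT samples. Pecam1, an endothelial adhesion gene, had an FE of 288, 332 and 287 in 5xFAD samples and no peak in WT samples, and Slc4a4, an astrocytic bicarbonate transporter gene, had 301, 390.5 and 184 in 5xFAD samples and no peak in WT samples. Of the 6 astrocyte markers in both genotypes, limma called 0 higher and 3 lower in 5xFAD, beside 20.8% and 32.3% of all overlay mRNAs. Those lower were Gfap, Gja1 and Apoe, with log2 differences of -2.06, -1.44 and -1.96. Slc1a2, Clu and Aldoc went the other way, at 3.02, 0.94 and 0.45, and were not called. A further 3 astrocyte markers were counted in 5xFAD alone and 2 in WT alone. Gria1, a glutamate receptor gene of excitatory neurons, was higher in 5xFAD by 1.18 ± 0.25 (limma adjusted p = 0.0102).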
